A study of Homo sapiens with 4 samples.

Results

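Epithelial-mesenchymal transition (EMT) is the change of epithelial cells, held together by E-cadherin, into loose and motile cells with a vimentin cytoskeleton. The genes described here are 9 in number: 6 transcription factors that drive it (ZEB1, ZEB2, SNAI1, SNAI2, TWIST1 and TWIST2), the E-cadherin and N-cadherin genes CDH1 and CDH2, and VIM, which encodes vimentin. They were chosen by symbol among probe sets assigned to exactly 1 gene, with the brightest probe set taken for a gene, and all 9 were found among the 18417 genes measured. Of the 9, ZEB2 had 2 such probe sets and the others 1 each. No measured value entered the choice of these genes, although it was made with earlier results of these data known.

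The cells were H1299, an established human line from a non-small cell lung tumour with no p53 of its own, in which a tet-on construct for mouse p53 had been stably inserted. The uninduced group was this line before induction, and the induced group had been given 0.5 µg/mL doxycycline, which switches the construct on, for 24 hours. Both groups carried the construct, both were grown in tet-free serum, and each was measured on 2 whole-transcript Affymetrix arrays that the labels call technical replicates. All p-values and intervals thus reflect how far arrays differ, which may be technical, and not how far cultures differ. No group received doxycycline without the construct.

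The ZEB and SNAI factors are zinc finger proteins that bind E-box sequences in the promoters of CDH1 and other epithelial genes and repress them. The TWIST factors are basic helix-loop-helix proteins, and in many tumour cells a loss of E-cadherin is accompanied by a gain of N-cadherin, the cadherin switch. p53 has been linked to this programme through the microRNA families miR-34 and miR-200, whose targets include the mRNAs of SNAI and ZEB factors, and through MDM2, which can ubiquitinate the SNAI2 protein.

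Promoter sequences in RefSeq, 250 bases before to 50 after a start of transcription (GRCh38.p14), were found for 5 of the 9 genes. The search for the 9 genes left out 1 chromosome, so a gene without a window here may still have one in RefSeq. The windows are printed for the 3 genes that fell after induction, with every E-box of the form CANNTG in capitals. For CDH2, which had 2 entries, the upstream one is shown.
ZEB2 promoter, chr2:144520070-144520369, minus strand: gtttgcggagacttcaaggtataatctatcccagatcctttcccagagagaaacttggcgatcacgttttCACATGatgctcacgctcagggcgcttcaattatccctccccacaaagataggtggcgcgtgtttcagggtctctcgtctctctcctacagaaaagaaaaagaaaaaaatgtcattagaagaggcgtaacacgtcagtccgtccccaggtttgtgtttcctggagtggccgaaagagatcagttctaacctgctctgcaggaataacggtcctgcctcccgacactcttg
CDH2 promoter, chr18:28177081-28177380, minus strand: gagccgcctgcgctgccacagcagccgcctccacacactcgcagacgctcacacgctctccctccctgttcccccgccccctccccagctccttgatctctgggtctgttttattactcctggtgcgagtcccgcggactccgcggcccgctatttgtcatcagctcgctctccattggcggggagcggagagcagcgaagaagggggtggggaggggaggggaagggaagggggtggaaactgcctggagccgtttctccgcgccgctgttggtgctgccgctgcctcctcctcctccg
VIM promoter, chr10:17227991-17228290, plus strand: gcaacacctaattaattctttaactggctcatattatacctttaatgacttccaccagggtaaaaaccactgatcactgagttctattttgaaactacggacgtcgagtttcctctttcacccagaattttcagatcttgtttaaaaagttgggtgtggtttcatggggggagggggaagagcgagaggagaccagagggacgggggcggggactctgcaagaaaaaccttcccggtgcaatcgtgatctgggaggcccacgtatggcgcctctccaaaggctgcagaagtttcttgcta
The ZEB2 window held 1 E-box, starting at base -180 counted from the start site, and the printed CDH2 and VIM windows held 0. The second CDH2 window, not printed, held 1 E-box at base -97 and 1 TTTGAA at base -117. An E-box of this form stood in 68.7% of all 35116 promoter windows, and so was common. None of the 3 printed windows held CAGGTG on either strand, the E-box form preferred by ZEB and SNAI factors, which is also counted as CANNTG and stood in 20.6% of windows. Of 7 ZEB1 windows 2 held it. None of the 3 printed windows held the p53 decamer consensus (6.63% of all windows), and TTTGAA, the cell cycle homology element, stood on either strand in 1 of the 3 printed windows, that of VIM (15.2% of all). These matches describe letters in a window, not bound sites.

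The mature forms of miR-34a and of the miR-200 family are shown because they are the named links between p53, SNAI and ZEB factors. Seeds, bases 2 to 8, are in capitals.
hsa-miR-34a-5p: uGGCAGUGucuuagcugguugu
hsa-miR-200b-3p: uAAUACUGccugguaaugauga
hsa-miR-200c-3p: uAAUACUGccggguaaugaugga
hsa-miR-429: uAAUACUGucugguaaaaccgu
hsa-miR-200a-3p: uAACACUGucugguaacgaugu
hsa-miR-141-3p: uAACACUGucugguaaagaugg
miR-200b, miR-200c and miR-429 share a seed, and miR-200a and miR-141 share another that differs from it at a single base.

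The 4 arrays separated by group. Across genes, which are not independent replicates, the Pearson correlation was 0.997 between the uninduced arrays, 0.995 between the induced arrays and 0.917 to 0.921 between an array of either group. The p53 response itself was measured in CDKN1A, the p21 cell cycle inhibitor, and in MDM2, the ubiquitin ligase that degrades p53. CDKN1A read 9.16 and 9.11 log2 units uninduced and 12.63 and 12.50 induced. MDM2 read 9.84 and 9.85 uninduced and 12.70 and 12.76 induced. Both genes were far above their uninduced level on both induced arrays, and the level of the p53 construct was not analysed here. Of 19 measured markers of blood, fibroblasts and endothelium, 3 passed the test, all higher: ITGAM with a log2 fold change of 1.34 (SE 0.083), TEK with 0.34 (SE 0.090) and CD3E with 0.26 (SE 0.081). Of 6 measured markers of lung epithelium, 2 rose: SCGB1A1, the club cell secretoglobin gene, by 2.03 log2 units (SE 0.094) and the surfactant gene SFTPC by 0.295 (SE 0.087). Over all genes 45.1% passed the same test, so neither count of markers exceeds the share of all genes. The median level of the 19 was 5.83 to 5.93 uninduced and 6.05 to 6.07 induced, and the part of any marker list in the results was not tested.

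Of the 9 EMT genes, 3 fell after induction (ZEB2, VIM and CDH2), 0 rose and 6 did not pass limma's test, with a threshold of 0.05 on the p adjusted by Benjamini-Hochberg over all 18417 genes. At an unadjusted p under 0.05, 4 were lower and 1, SNAI2, was higher. Of all 18417 genes, 4971 were lower and 4288 higher at that threshold. Over all genes 45.1% were called, 20.6% higher and 24.6% lower, so a count of 3 of 9 (33.3%) is no larger than the share of all genes. Without uninduced array 1, and likewise without uninduced array 2, ZEB2 alone was called, and without induced array 1 the count was 2. The median log2 fold change of the 9 was -0.18, against 0.00 for all genes. On 8 of the 9 the 2 groups did not overlap (66.8% of all genes), with 7 of them lower on both induced arrays (34.3%) and SNAI2 higher on both (32.5%).

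**Figure D1:**
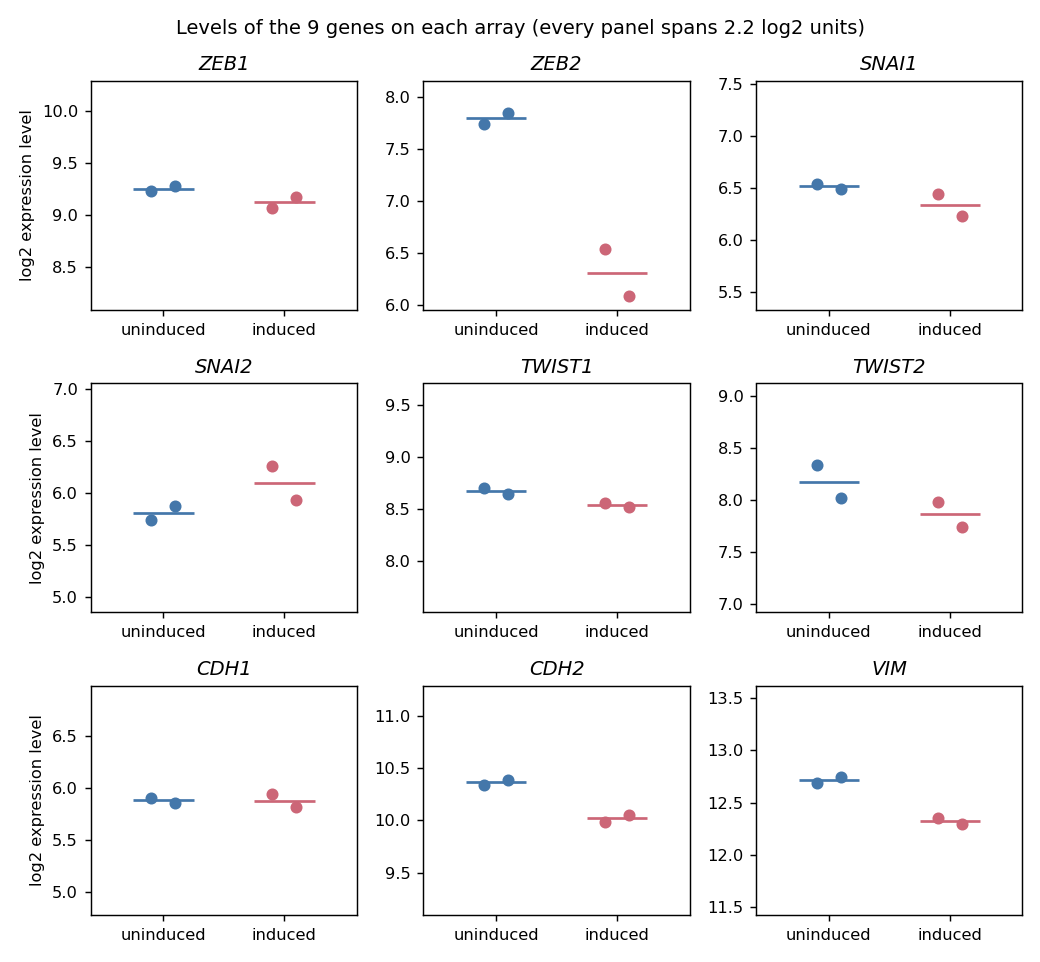
Log2 expression level (y axis) of each EMT gene on the uninduced (blue) and induced (red) arrays, 1 point per array with a line at the group mean; each panel has its own axis position but the same span. ZEB2 drops from 7.79 to 6.31, whereas CDH1 stays at 5.82 to 5.94 on all 4 arrays.

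ZEB2 (probe set 8055624), which encodes the repressor also called SIP1, had levels of 7.74 and 7.84 log2 units on the uninduced arrays and 6.54 and 6.08 on the induced arrays. Both induced arrays lay more than a log2 unit below both uninduced arrays. The mean fell from 7.79 ± 0.071 to 6.31 ± 0.33 (SD, n = 2 arrays each), which is 2.79-fold lower (log2 fold change -1.48, SE 0.15, 95% interval -1.83 to -1.13, limma adjusted p = 0.00012). Of all genes tested, 93.8% changed by less in either direction. The SD between the induced arrays, 0.33, was well above the median of all genes on those arrays, 0.085. ZEB2 kept its call with any single array left out, with log2 fold changes from -1.71 to -1.25.

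The second ZEB2 probe set (8055639) was dimmer, at 5.48 and 5.28 uninduced and 4.62 and 4.57 induced. It too was lower on both induced arrays, by 0.79 (log2 fold change -0.785, SE 0.10, adjusted p = 0.0039 in limma's test over all 33297 rows). That is 1.72-fold against 2.79-fold for the brighter set, so the direction was shared and the size was not. The mean level of ZEB2 lay under the 40th percentile of all genes, and no detection call was used. Whether a lower limit of measurement bounded the fold of either set was not tested.

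ZEB1 (probe set 7926916), the paralogue of ZEB2, read 9.23 and 9.28 uninduced and 9.07 and 9.18 induced. The induced arrays were slightly lower on both, and the change did not pass the test (log2 fold change -0.13, SE 0.087, 95% interval -0.33 to 0.074, limma adjusted p = 0.286). The interval, which reflects how far arrays differ, reaches a fall of 0.33 log2 units and not one as large as that of ZEB2. On the same arrays, the level of ZEB1 minus that of ZEB2 was 1.49 and 1.44 log2 units uninduced and 2.53 and 3.10 induced. The ZEB paralogues thus changed unequally, and the shift of this difference, 1.35 log2 units, is a description with no test of its own.

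SNAI1 (probe set 8063382), which encodes Snail, read 6.54 and 6.49 uninduced and 6.44 and 6.23 induced. Its log2 fold change was -0.18 (SE 0.099, 95% interval -0.41 to 0.052, limma adjusted p = 0.194). The induced arrays lay below the uninduced ones by a margin that was small beside their own distance from each other.

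SNAI2 (probe set 8150698), which encodes Slug, was the 1 gene of the 9 whose values were higher on both induced arrays, at 6.26 and 5.94 against 5.74 and 5.88. The difference of 0.29 (SE 0.12, 95% interval 0.0024 to 0.58) had an adjusted p of 0.0971 in limma's test. It passed when each array was centred on its own median, where the log2 fold change was 0.34 and the adjusted p 0.0383, and it ranged from 0.13 to 0.45 over the alternatives. The higher of the induced values came from the first array, and the second lay close above an uninduced array.

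TWIST1 (probe set 8138442) read 8.70 and 8.64 uninduced and 8.56 and 8.52 induced, a log2 fold change of -0.13 (SE 0.083, 95% interval -0.32 to 0.065, limma adjusted p = 0.264). TWIST2 (probe set 8180300) read 8.33 and 8.02 uninduced and 7.98 and 7.74 induced. Its groups were barely apart, and within each group its arrays differed by more than those of TWIST1. The log2 fold change of TWIST2 was -0.315 (SE 0.13, 95% interval -0.62 to -0.0070, limma adjusted p = 0.093). It passed with an intensity trend and a robust prior in limma (adjusted p = 0.0325). The TWIST genes are close paralogues, and whether their probes share targets was not examined.

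CDH1 (probe set 7996837), the E-cadherin gene that the SNAI and ZEB factors repress, read 5.91 and 5.86 uninduced and 5.94 and 5.82 induced. The groups overlapped. The log2 fold change was -0.0050 (SE 0.088, 95% interval -0.21 to 0.20, limma adjusted p = 0.975), and only 0.809% of genes changed by less. The interval holds changes of up to about 0.2 log2 units in either direction. CDH1 lay between the quartiles, 5.14 and 6.81 log2 units, of the blood, fibroblast and endothelial marker readings. Levels of different probe sets do not rank genes and no detection call was used. A lower limit of measurement for CDH1, SNAI1, SNAI2 and ZEB2 is thus not known.

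CDH2 (probe set 8022674), the N-cadherin gene, read 10.34 and 10.39 uninduced and 9.99 and 10.05 induced. Both induced arrays lay below both uninduced arrays by several times the distance within a group. The mean fell from 10.37 ± 0.035 to 10.02 ± 0.042 (SD, n = 2 arrays each), 1.27-fold lower (log2 fold change -0.345, SE 0.083, 95% interval -0.54 to -0.15, limma adjusted p = 0.011). Of all genes, 60.0% changed by less. The call did not hold without uninduced array 1 (limma adjusted p = 0.0872), without uninduced array 2 (0.116) or without induced array 1 (0.0519), nor in limma's treat test against a fold of 1.2 (0.457), while the log2 fold change lay between -0.375 and -0.295 over all alternatives. The level of CDH2 minus that of CDH1 on the same array was 4.43 and 4.53 log2 units uninduced and 4.05 and 4.23 induced. This cadherin difference was thus smaller on both induced arrays, where CDH2 was lower and CDH1 overlapped its uninduced values.

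VIM (probe set 7926368), the intermediate filament gene of mesenchymal cells, read 12.69 and 12.75 uninduced and 12.35 and 12.29 induced. The mean fell from 12.72 ± 0.042 to 12.32 ± 0.042 (SD, n = 2 arrays each), 1.32-fold lower (log2 fold change -0.40, SE 0.084, 95% interval -0.60 to -0.20, limma adjusted p = 0.00556). The gap between the groups was several times that within either group, and 63.6% of all genes changed by less. The call did not hold without uninduced array 1 (limma adjusted p = 0.065) or uninduced array 2 (0.088), nor in the treat test (0.206).

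**Figure D2:**
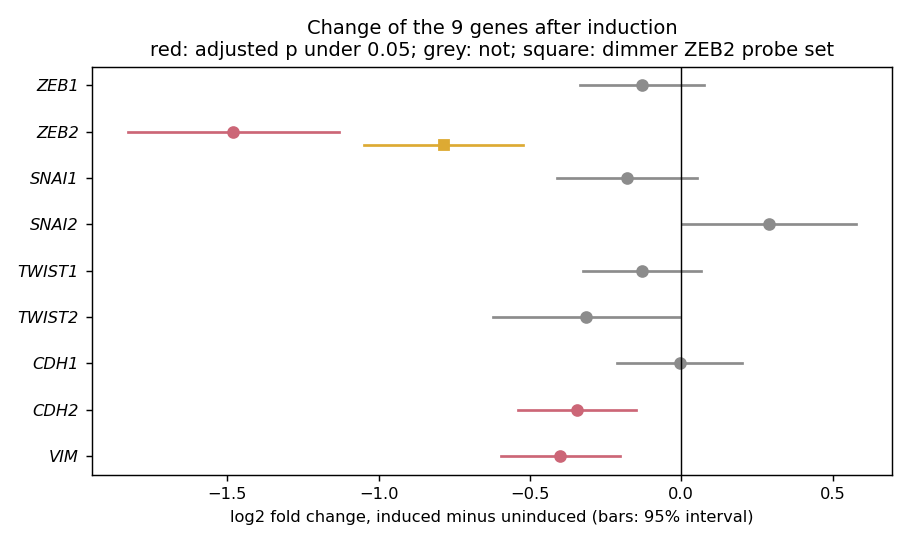
Log2 fold change, induced minus uninduced (x axis), of each EMT gene with limma's 95% interval; red marks an adjusted p under 0.05, grey the rest, and the square the dimmer ZEB2 probe set. ZEB2 at -1.48 stands apart from the other 8 genes, which lie between -0.40 and 0.29.

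**Figure D3:**
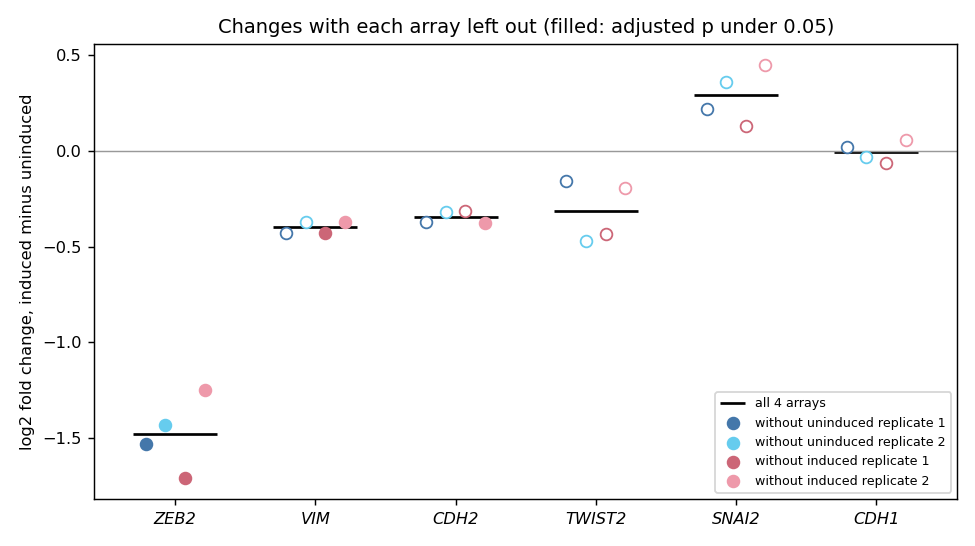
Log2 fold change (y axis) of 6 EMT genes with each array left out in turn (points, filled where the adjusted p stays under 0.05) beside the value from all 4 arrays (black line). ZEB2 stays called in every case, VIM in 2 and CDH2 in 1, and CDH1 lies on both sides of 0.

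The miRNA genes come next because the products of some of them act on the mRNAs of the factors above. Their probe sets read primary or precursor transcripts, not the mature forms printed above. Of 19 measured, 1 rose (MIR34A), 1 fell (MIR21) and 17 did not pass limma's test, so 10.5% were called against 45.1% of all genes. These probe sets were dim, with a median uninduced level of 5.115 against 7.73 for all genes. The 45.1% is therefore not a share among genes of like level, and the low count is not read as stability. MIR34A, whose product has SNAI1 among its known targets, read 5.18 and 5.05 uninduced and 6.28 and 6.44 induced, 2.37-fold higher (SE 0.097 on the log2 scale). Both induced arrays were above both uninduced arrays by more than a log2 unit. MIR21, an oncogenic miRNA gene whose probe set cannot be told apart from read-through of its overlapping host gene VMP1, read 10.27 and 10.14 uninduced and 8.73 and 8.93 induced, 2.59-fold lower (SE 0.10 on the log2 scale).

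The 5 miR-200 family genes did not move with MIR34A. MIR141 read 5.05 and 5.25 uninduced and 5.19 and 4.86 induced, and MIR200B read 6.97 and 6.79 against 6.86 and 6.87. MIR200C, MIR200A and MIR429 had log2 fold changes of 0.025 (SE 0.081), 0.035 (SE 0.095) and 0.010 (SE 0.091). The groups overlapped for all 5 of these genes, in levels at which no detection call was used. The remaining genes not called were MIR34B, MIR130B, MIR192, MIR215, MIR194-1, MIR194-2, MIR203A, MIR183, MIR9-1, MIR10B, MIR29B1 and MIR30A, and the log2 fold changes of all 17 lay between -0.285 and 0.14.

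The other EMT genes were taken in lists drawn up by role. Over all genes 45.1% were called, but that share depends on level. Without genes under the 40th percentile of mean level, 7515 of 11053 genes were called, and 95 of 127 other EMT genes. With no such filter 193 other EMT genes were measured, of which 101 were called, 50 higher and 51 lower. That number was 64 without uninduced array 1 and 63 without uninduced array 2, so list counts below also rest on those arrays. Epithelial genes, among them targets of ZEB and SNAI repression, rose in 10 of 31 and fell in 4, with 17 not past limma's test and a median log2 fold change of 0.080 (45.2% called, against 45.1% of all genes). CDS1, an enzyme gene of phosphoinositide synthesis, rose 3.63-fold, CDH3, which encodes P-cadherin, 3.08-fold, and the polarity scaffold gene PATJ 2.24-fold. The tight junction gene CLDN1 fell by 0.94 on the log2 scale, the desmosomal cadherin gene DSC2 fell by 0.86 and the epithelial transcription factor gene GRHL1 fell by 0.65 (1.56-fold lower; call lost without uninduced array 1, adjusted p = 0.103, or array 2, 0.114). The adjusted p-values of these 6 genes in limma's test were 5.2e-06 to 0.0032. The other genes of the list that rose were MARVELD3, CGN, DSG2, DSP, TJP3, TJP1 and LSR, genes of junctions, with log2 fold changes from 0.37 for LSR to 0.76 for MARVELD3, and PKP2 fell by 0.31. Among the 17 not past the test were EPCAM, GRHL2, OVOL1, OVOL2, ESRP2, CLDN3, CLDN4 and CLDN7. The epithelial list was dim, with a median uninduced level of 6.775 against 7.73 for all genes, and no detection call was used. CDS1 and CDH3 had mean uninduced levels of 5.31 and 6.195. Whether a lower limit of measurement bounded these changes was not tested, and the genes not past the test are not read as unchanged.

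Of 32 mesenchymal genes measured, 8 rose, 7 fell and 17 did not pass, with a median of 0.053. The share called, 46.9%, was near the 45.1% of all genes. VCAN, the gene of the matrix proteoglycan versican, rose 15.4-fold (7.43 and 7.68 against 11.44 and 11.56 log2 units), ACTA2, smooth muscle actin, 14.1-fold and TAGLN, an actin-binding protein gene, 2.06-fold. LOXL2, a lysyl oxidase that also acts on SNAI1, fell by 1.85 (10.40 and 10.41 against 8.53 and 8.58), the fibronectin receptor gene ITGA5 fell by 1.08 (2.12-fold lower) and the collagen receptor gene DDR2 fell by 0.81. With its probe sets averaged, the log2 fold change of DDR2 was -0.55. The 8 that rose moved opposite to CDH2 and VIM and the 7 that fell moved with them, so the called genes had no shared direction. The adjusted p-values of the 6 genes named here lay between 4.8e-07 and 0.00027 in limma's test.

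Among 18 other EMT transcription factors and ID proteins, which bind and block basic helix-loop-helix factors, 3 rose, 4 fell and 11 did not pass (median -0.013, 38.9% called against 45.1% of all genes). The list had a median uninduced level of 8.67, against 7.73 for all genes. ID2 rose 3.10-fold, ID3 1.62-fold and SNAI3, the third SNAI family gene, 1.51-fold. ETS1 fell by 1.57 (2.98-fold lower), ID1 fell by 0.66 and SOX9 fell by 0.525 (adjusted p = 0.0222 in limma's test). The SOX9 call was lost without uninduced array 1 (0.231), without uninduced array 2 (0.264) and without induced array 2 (0.0552), and also with all rows tested (0.0743) and in the treat test (0.1745). The ID genes therefore did not move together, since ID2 and ID3 rose and ID1 fell.

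Of 21 corepressors through which SNAI, ZEB and TWIST factors silence their targets, 10 fell, 4 rose and 7 did not pass, with a median of -0.25. That is 66.7% called, against 45.1% of all genes, where falls (24.6%) also outnumbered rises (20.6%). These were bright genes, with a median uninduced level of 9.845 against 7.73 for all genes. Among genes at or above the 40th percentile of mean level, 7515 of 11053 were called. The 45.1% is thus not a share among genes of like level, which was not taken. The histone methyltransferase genes SUV39H1 and EZH2 fell by 1.68 and 1.45, and the DNA methyltransferase gene DNMT1 fell by 1.26. AJUBA, a LIM protein that recruits SNAI corepressors, rose 3.84-fold, its relative LIMD1 1.62-fold and the deacetylase gene HDAC1 1.37-fold. The LIMD1 call was lost without uninduced array 1 (adjusted p = 0.0527 in limma's test), and that of HDAC1 without uninduced array 1 (0.0526) or 2 (0.0692) and in the treat test (0.0928).

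The partners of the cadherins at the membrane were called in 13 of 15 (86.7%, against 45.1% of all genes), 7 higher and 6 lower, with a median of 0.080. Their median uninduced level was 8.905, against 7.73 for all genes, so the 45.1% is not a share among genes of like level. JUP, which encodes plakoglobin, rose 2.12-fold, the scaffold gene IQGAP1 1.54-fold and NECTIN1, an adhesion receptor gene, 1.46-fold. VCL, the gene of the actin linker vinculin, fell by 1.15, NECTIN3 fell by 0.905 and ADAM10, the protease that sheds cadherins, fell by 0.885. The NECTIN1 call was lost without uninduced array 1 (adjusted p = 0.0595 in limma's test) or 2 (0.0889).

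Genes linked to the stability of SNAI and ZEB proteins were called in 16 of 21 (76.2%, against 45.1% of all genes), 7 higher and 9 lower, with a median of -0.16. This list too was brighter than all genes, with a median uninduced level of 8.93 against 7.73, so the 45.1% is not a share at like level. Beside MDM2, which rose 7.39-fold, the ubiquitin ligase subunit gene FBXW7 rose 3.24-fold and GSK3B, the kinase that marks SNAI1 for destruction, 2.44-fold. LOXL2 was followed among the falls by the checkpoint kinase gene CHEK1, which fell by 1.67, and FBXO45, which fell by 1.24. Protein levels of the SNAI and ZEB factors were not measured.

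Of 20 genes of TGF-beta signalling, a main inducer of EMT, 7 rose, 7 fell and 6 did not pass (median 0.018, 70% called against 45.1% of all genes). Here the median uninduced level was 8.60, against 7.73 for all genes, so again the 45.1% is not a share at like level. The receptor genes moved in opposite directions: TGFBR1 rose 4.71-fold, from 8.44 and 8.40 to 10.64 and 10.67, and TGFBR2 fell by 1.06 (2.09-fold lower), from 8.46 and 8.44 to 7.43 and 7.34. The ligand gene TGFB2 was 2.29-fold lower and SKIL, which encodes an inhibitor of SMAD proteins, fell by 1.82. BMP7, a ligand that opposes TGF-beta, rose 2.14-fold and the SMAD corepressor gene TGIF1 1.87-fold. The log2 fold change of TGIF1 was 0.90 on its brightest probe set and 0.782 with its probe sets averaged. The adjusted p-values of these 6 lay between 1.3e-06 and 0.00016 in limma's test.

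Beside VIM, 17 intermediate filament and linked genes were measured, of which 3 rose, 4 fell and 10 did not pass (median 0.085, 41.2% called against 45.1% of all genes). LMNB1, the lamin B1 gene, fell by 2.42 (9.69 and 9.52 against 7.24 and 7.12), LMNB2 fell by 1.22 and the keratin gene KRT80 fell by 1.03. LMNA rose 2.24-fold, KRT8, an epithelial keratin gene, 2.21-fold and SYNM, which pairs with vimentin, 1.23-fold. The SYNM call was lost without uninduced array 1 (adjusted p = 0.206 in limma's test), uninduced array 2 (0.137) or induced array 1 (0.0992), and also with all rows tested (0.0642) and in the treat test (0.839).

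**Figure D4:**
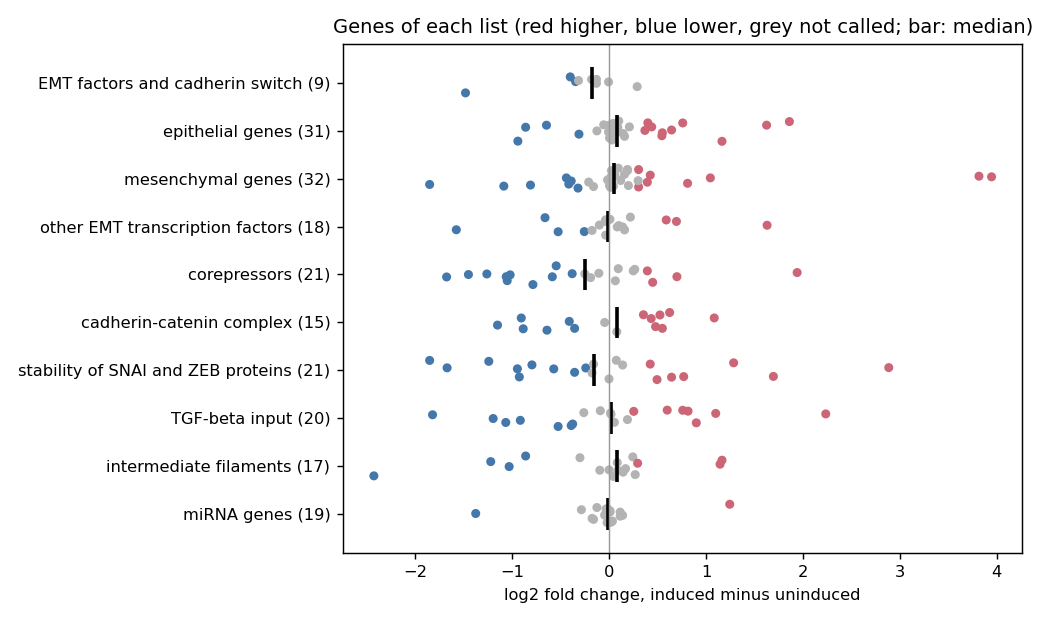
Log2 fold change, induced minus uninduced (x axis), of every measured gene in each list (number of genes in brackets); red points rose, blue points fell, grey points did not pass the test, and black bars are medians. List medians lie between -0.25 and 0.085, with called genes on both sides of 0 in every list except the EMT factors and cadherins themselves, where no gene is called higher.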

How the data were processed

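Single-stranded cDNA made from total RNA carried biotin and was read on Affymetrix arrays, per the labels' protocols. Affymetrix Expression Console with RMA gave the values, per the submitters' processing notes; versions, settings and genome build: not given in the sources used here. Values as deposited are log2 levels between 2.26 and 14.3, with array medians of 7.26 to 7.33. RMA equalises the arrays' distributions, so a shift of all transcripts would be hidden.

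Of 33297 rows, 19460 had 1 gene symbol, 1754 several and 12083 none. Symbols were updated through gene IDs in RefSeq (19429 matched), and the probe set with the highest mean represented each gene. limma 3.58.1 in R 4.3.3 compared induced with uninduced arrays (lmFit and eBayes without covariates; degrees of freedom 2 residual, 7.20 total), two-sided, adjusted over 18417 genes. Intervals are 95% and SEs moderated. An exact permutation test of 2 against 2 arrays cannot give p under 0.333, so none is reported. The fit was tested on simulated data. Members, lists and tests were chosen with earlier results of these data known. All 9 members and up to 3 called rises and 3 called falls with the largest change of each other list were named, and every measured miRNA gene. Further genes of the epithelial list and the called markers were named after their values were seen. The alternatives were another quantile normalization, median centring, a filter on dim genes, averaged probe sets, all rows, a trended robust prior, limma's treat, a replicate block and leaving out each array. Figures used Python 3.11.15 and matplotlib 3.10.9.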

Additional observations from a re-analysis of the deposited data

How the results depend on the processing

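Of 105 values of the 9 genes under the alternatives, 91 kept both direction and side of the threshold. Those that did not were 7 lost calls of CDH2 and VIM, 3 gained calls of SNAI2 and TWIST2, and 4 turns of sign of CDH1, whose log2 fold change was 0.016 after quantile normalization again, 0.045 after median centring, and -0.065 to 0.055 with each array left out (0.020 without uninduced array 1, 0.055 without induced array 2); its adjusted p-values lay between 0.472 and 1 over all alternatives. With treat against a fold of 1.2, 1 of the 9 genes (ZEB2) and 5479 of all genes were called. Leaving out each array gave 1 to 3 of the 9 genes, 63 to 90 of the 193 other EMT genes (101 with all arrays) and 4959 to 6904 of all genes (8311 with all arrays). Without uninduced array 1 the counts were 1, 64 and 5043, and without uninduced array 2 they were 1, 63 and 4959. Without dim genes 5 of the 9 were tested and 2 (CDH2 and VIM) were called, against 7515 of 11053 of all genes. ZEB2, SNAI1, SNAI2 and CDH1 lay below that filter. Of 581 values of the 49 other called genes named by the rule, 561 kept their call. The 20 lost were of GRHL1, SOX9, LIMD1, HDAC1, NECTIN1 and SYNM. The replicate number as a block called 4 of the 9 genes (TWIST2 added, adjusted p = 0.0328), 99 of the other EMT genes (calls of SOX9 and SYNM lost, adjusted p = 0.0972 and 0.0715) and 7820 of all genes; same-numbered arrays deviated from their group means with a correlation of 0.225 across genes, and the labels do not say that the numbers mark shared material. Median centring shifted the median of all genes by 0.05 log2 units. The called markers, the further epithelial genes and the 17 miRNA genes not called were not followed singly.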
